A study of Gallus gallus with 6 samples.

Results

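The enzymes that write, erase and read histone marks, and the ATPases that move nucleosomes, were compared between chicken primordial germ cells (PGC), from which eggs and sperm derive, and chicken embryonic fibroblasts (CEF), connective-tissue cells grown from the embryonic body. The genes were taken by name: every single annotated symbol that begins with KDM, KMT, SETD, PRMT, KAT, HDAC, SIRT, SMARC, CHD, ARID, BRD or ING, followed by a number where the family name needs one. This gave 91 of the 13009 genes with a symbol on the array. A gene measured by several probe sets (groups of short probes that report one transcript) was represented by its brightest probe set, judged by the mean of all 6 arrays.

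Total RNA had been measured on Affymetrix Chicken Genome arrays, 3 with PGC and 3 with CEF, to find transcripts that predominate in each cell type. The PGC came from dorsal aorta blood of embryos at day 2.5, with 20 embryos behind each replicate, and had grown in knockout DMEM with human basic fibroblast growth factor at 10 ng/ml. Each PGC sample used 1500000 cells. The CEF came from bodies of embryos at day 6.5, with 5 embryos behind each replicate, after internal organs and limbs had been taken off. They were cultured in DMEM with 10% fetal bovine serum until passage 2, and 6000000 cells were used for each sample. No genetic change or drug distinguishes the groups, and each sample is a pool of several embryos whose strain and sex are not given in the labels. Cell type, embryonic age and medium differ together and cannot be told apart. Time in culture may differ with them, as a passage is recorded only for CEF.

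Deposited values are on what reads as a log2 scale, on which 1 unit is 2-fold. A gene is called higher in a cell type where the adjusted p of limma, taken over all 38439 tested probe sets, is under 0.05 and the difference is at least 1 on the log2 scale. Differences are PGC minus CEF, with standard errors from limma, and group values are mean and SD of 3 arrays. The background level, below which a gene has only an upper bound, was 1.68 in PGC and 1.97 in CEF. The arrays' medians ran from 2.74 to 2.77 in PGC and from 2.69 to 2.73 in CEF.

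Both cell types carried the markers of their labels. All 7 measured germ cell markers, among them DAZL (11.33 in PGC and 1.06 in CEF), were called higher in PGC, and all 11 fibroblast markers were called higher in CEF. CEF also had higher levels of 6 of 9 leukocyte, 5 of 11 endothelial and 3 of 9 muscle markers, whereas 1 leukocyte and 2 of 8 neural markers were higher in PGC and none of 6 erythroid markers was called. Marker counts are to be read beside the shares over all genes, 17.6% called higher in PGC and 14.9% higher in CEF. Summed on a linear scale, the fibroblast markers came to 1060 to 1104 in PGC and 22734 to 27306 in CEF. The leukocyte markers came to 90 to 95 in PGC and 250 to 593 in CEF. The endothelial ones came to 144 to 155 in PGC and 304 to 526 in CEF, and the muscle ones to 76 to 82 in PGC and 1165 to 1460 in CEF. The endothelial factor ERG was at least 48.5-fold higher in CEF, with 1.29, below background, in PGC and 7.28 in CEF, whereas the vascular cadherin CDH5 lay at background in both cell types. The leukocyte antigen CD45 (PTPRC) averaged 2.55 in PGC and 6.98 in CEF, a difference of -4.43. The muscle sum was mostly that of ACTA1, skeletal muscle actin, at 5.21 in PGC and 10.26 in CEF. Without it the sum was 40.7 to 41.9 in PGC and 47.1 to 52.8 in CEF, and the myogenic factor MYOD1 was not called, at 1.98 in PGC and 2.13 in CEF. Proliferation markers were higher in PGC for 11 of 14 genes, and their sum was 6856 to 7046 in PGC and 2647 to 3168 in CEF. The part of other cells and of proliferation in the results below was not tested, and in bulk RNA fewer cells of a type and less RNA per cell cannot be told apart.

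DNA in the nucleus is wound around histones. Acetyl and methyl groups on the histone tails are set by acetyltransferases and methyltransferases and taken off by deacetylases and demethylases, and proteins with bromodomains or PHD fingers bind the marked tails. Remodelling ATPases of the SWI/SNF, ISWI and CHD families slide, evict or space nucleosomes, and in the mouse, germ cell development is known for a broad resetting of these marks.

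Of the 91 chromatin genes, 25 (27.5%) were called higher in PGC and 10 (10.99%) higher in CEF, and 56 were not called. Of these 56, 27 had an adjusted p under 0.05 by limma and missed only the 2-fold threshold, as did 3770 of the 8782 genes not called on the whole array. Over all 13009 genes, 32.5% were called in either direction, 17.6% higher in PGC and 14.9% higher in CEF. The median difference was 0.15 for the chromatin genes and -0.05 for all genes, and the middle range, from the lower to the upper quartile, was -0.34 to 1.08 for the chromatin genes and -0.51 to 0.65 for all genes. Among genes above background in at least 1 cell type, 25 of 88 chromatin genes were higher in PGC and 10 in CEF, where all such genes gave 20.0% and 16.8%. The other 3, CHD5, KDM2A and BRDT, lay at background in both cell types. All 3 PGC arrays lay above or below all 3 CEF arrays for 68 of the 91 genes, a pattern met by 71.2% of all genes.

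How many genes are called in each direction depends on how the arrays are scaled. The bacterial spike-ins bioB, bioC and bioD of the hybridisation mix read 0.97 lower on average on the PGC arrays than on the CEF arrays, with differences of -1.10 for bioB, -1.08 for bioC and -0.67 for bioD. The brightest spike-in, cre, read 11.20 in PGC and 11.33 in CEF, a difference of -0.13, so the offset was not common to all 4. The counts under scaling to the spike-ins, here and below, use bioB, bioC and bioD. After that scaling the median over all genes became 0.93, 45.6% of all genes were called higher in PGC and 7.13% higher in CEF, and the chromatin genes split into 52 higher in PGC and 2, KAT2B and HDAC9, higher in CEF. Scaling to cre alone, a setting chosen after the data were seen, gave 25 and 9. Centring on the 75th percentile moved the median of all genes to -0.17. The differences below are those of the deposited values, and are therefore relative to the bulk of the genes on each array.

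**Figure D1:**
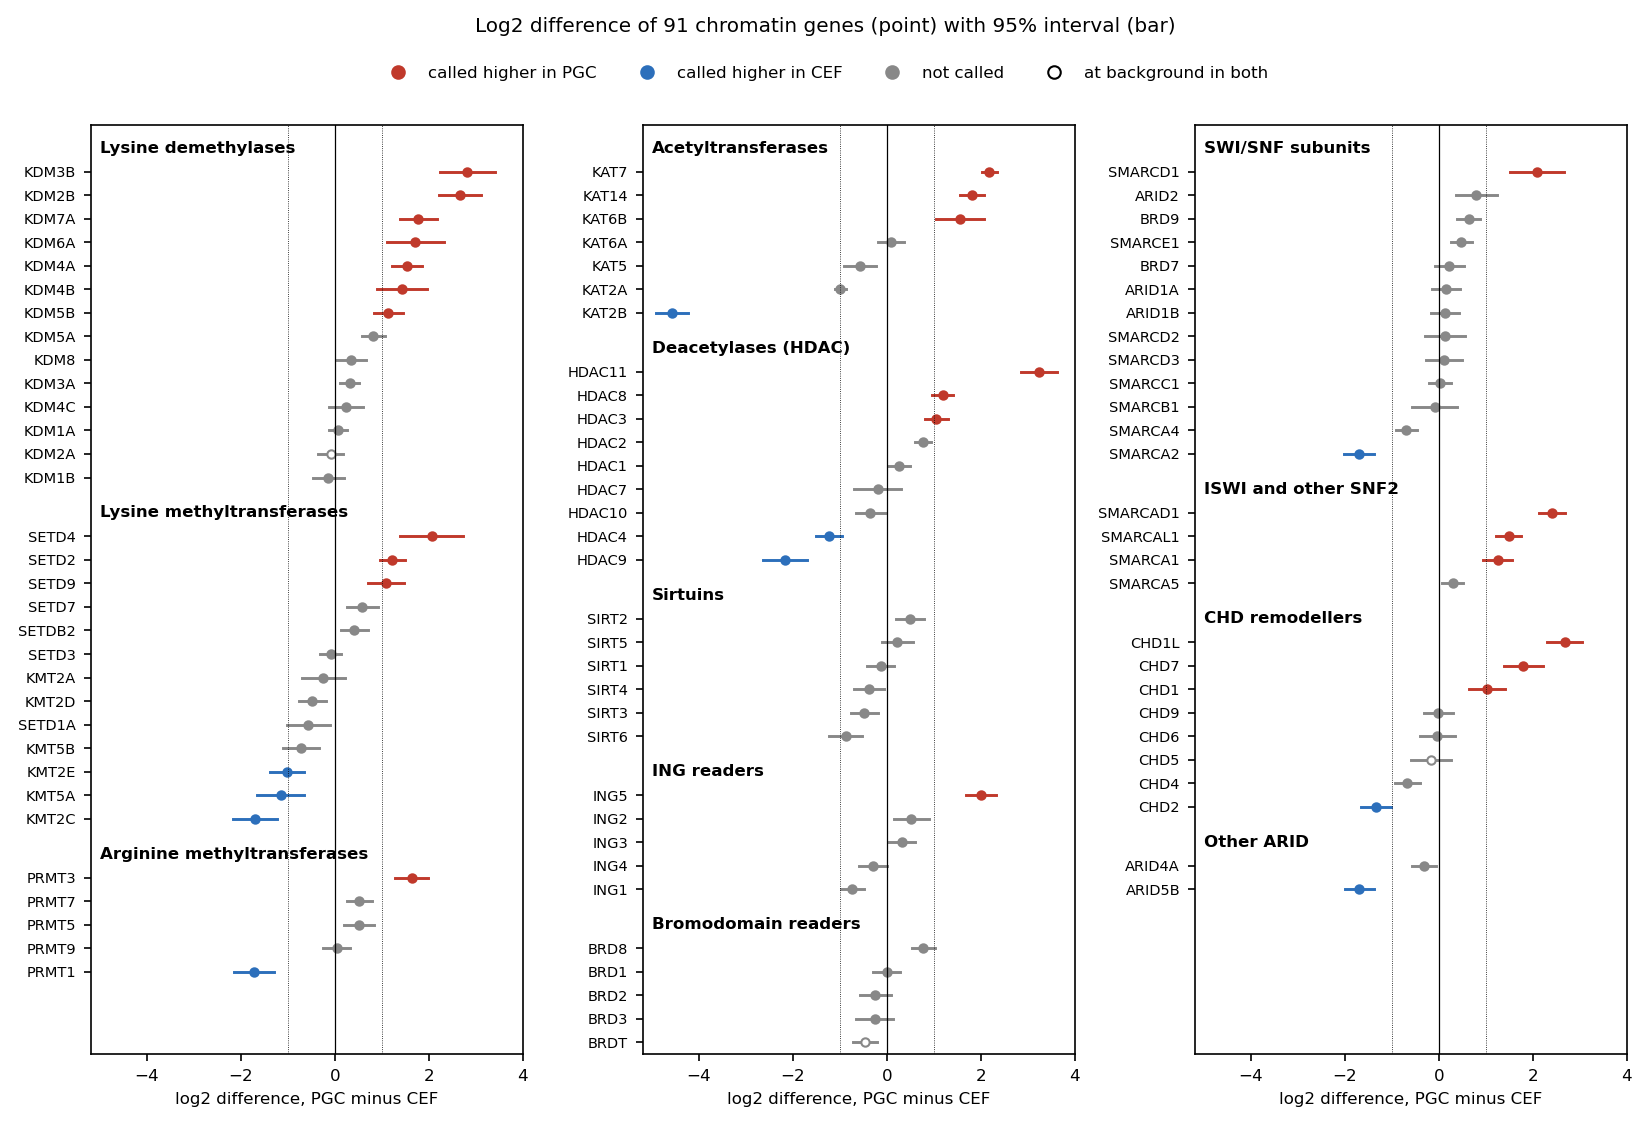
Log2 difference (PGC minus CEF, horizontal axis) of each of the 91 chromatin genes, by role, with its 95% interval from limma. Red points are the 25 genes called higher in PGC, blue points the 10 called higher in CEF, grey points the 56 not called and open points the 3 at background in both cell types. Dotted lines mark a log2 difference of 1 in either direction.

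By number, histone demethylases were the family with the most genes higher in PGC, and they were also the largest family. By share, the ISWI and other SNF2 remodellers had more, with 3 of 4. Of 14 demethylases measured, 7 were called higher in PGC and none higher in CEF, where all genes gave 17.6% and 14.9%. The median difference of the demethylases was 0.98. Scaling to the spike-ins gave 12 and 0 with a median of 1.95, where all genes gave 45.6% and 7.13% with a median of 0.93. The counts of the families below are to be read beside the same shares. For 5 of the 7, KDM3B, KDM4A, KDM4B, KDM5B and KDM6A, the brightest probe set is marked by the array design as shared between transcripts. With unshared probe sets where a gene has one, 4 of 14 were higher in PGC and the median was 0.28, where 16.6% of all genes were higher in PGC and 14.2% in CEF. KDM3B, which takes methyl groups off lysine H3K9 of histone H3, read 5.82, 5.82 and 5.65 on the PGC arrays and 2.30, 3.21 and 3.31 on the CEF arrays. All PGC arrays lay well above all CEF arrays, of which replicate 1 was the lowest. The difference was 2.82 ± 0.26 (SE), or 7.07-fold, with an adjusted p of 2.6e-05 by limma. KDM3B has no unshared probe set to set beside it.

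KDM2B, a demethylase of H3K36 that also brings a Polycomb complex to CpG islands, averaged 7.53 ± 0.10 in PGC and 4.86 ± 0.41 in CEF, a difference of 2.67 ± 0.20. KDM7A, a demethylase of H3K9 and H3K27, averaged 4.57 ± 0.28 in PGC and 2.78 ± 0.11 in CEF and differed by 1.78 ± 0.17. KDM6A, which erases the Polycomb mark on H3K27, averaged 5.36 ± 0.17 in PGC and 3.64 ± 0.56 in CEF and differed by 1.72 ± 0.26. For these 3 genes all PGC arrays lay above all CEF arrays.

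KDM4A and KDM4B remove methyl groups from H3K9 and H3K36. KDM4A averaged 7.87 ± 0.02 in PGC and 6.33 ± 0.26 in CEF, a difference of 1.54 ± 0.14, and KDM4B 4.67 ± 0.05 in PGC and 3.24 ± 0.48 in CEF, a difference of 1.44 ± 0.23. KDM5B, which acts on H3K4, averaged 6.21 ± 0.14 in PGC and 5.07 ± 0.15 in CEF, a difference of 1.14 ± 0.14. The cell types did not overlap for any of these genes. On the brightest unshared probe set KDM4A was still called, at 1.04, whereas KDM6A differed by -0.09, KDM4B by -0.50 and KDM5B by 0.08, and none of these 3 was called. Of the demethylases not called, the difference nearest to 0 was that of KDM1A (0.07 ± 0.08), the H3K4 demethylase LSD1, and the largest that of KDM5A (0.82 ± 0.11), an H3K4 demethylase like KDM5B.

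Lysine methyltransferases went both ways, with 3 of 13 higher in PGC and 3 higher in CEF, and under scaling to the spike-ins 5 and 0. SETD4, a SET-domain protein, read 4.83, 4.76 and 4.76 in PGC and 2.87, 1.99 and 3.29 in CEF. The PGC arrays were close to each other and above all CEF arrays, the second of which was near background. Its difference was 2.07 ± 0.29 (adjusted p = 4.1e-04 by limma), or 4.20-fold. SETD2, which trimethylates H3K36 on transcribed genes, averaged 8.57 ± 0.09 in PGC and 7.35 ± 0.20 in CEF, a difference of 1.23 ± 0.12. SETD9, another SET-domain protein, averaged 6.64 ± 0.04 in PGC and 5.55 ± 0.34 in CEF. It differed by 1.10 ± 0.17, by 0.90 without CEF replicate 1 and by 0.30 on its brightest unshared probe set.

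The 3 methyltransferases higher in CEF were KMT2C, KMT5A and KMT2E. KMT2C, the enzyme MLL3 that sets the monomethyl mark of H3K4 at enhancers, averaged 4.94 ± 0.25 in PGC and 6.64 ± 0.35 in CEF, a difference of -1.70 ± 0.20. KMT5A, which monomethylates H4K20, averaged 3.38 ± 0.13 in PGC and 4.53 ± 0.43 in CEF. It differed by -1.15 ± 0.22, and by -0.98 without CEF replicate 3. KMT2E, an MLL relative with a PHD finger, averaged 5.73 ± 0.07 in PGC and 6.75 ± 0.29 in CEF. Its difference was -1.02 ± 0.16 and fell short of the threshold without CEF replicate 1 (-0.90), CEF replicate 3 (-0.98) or PGC replicate 3 (-0.98). None of the 3 was called when all probe sets of a gene were averaged, where KMT2C differed by -0.40, KMT5A by -0.52 and KMT2E by -0.03. Each of these means takes in a probe set at background. Their other probe sets above background, none of them called, differed on average by -0.36 for KMT2C, -0.27 for KMT5A and 0.85 for KMT2E. SETD3, which methylates actin, differed by -0.09 ± 0.10, the value nearest to 0 in this family, and KMT5B, which adds further methyl groups to H4K20, by -0.71 ± 0.17, the largest of those not called.

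Arginine methyltransferases gave 1 gene in each direction among 5, and under scaling to the spike-ins 4 higher in PGC and none in CEF. PRMT1, the main enzyme of asymmetric arginine dimethylation, read 0.88, 1.04 and 1.08 in PGC, all below background, and 2.31, 2.91 and 2.94 in CEF. The groups did not overlap. The measured difference was -1.72 ± 0.18 (adjusted p = 7.0e-05 by limma), and against the background level of PGC the gene was at least 2.05-fold higher in CEF. PRMT3, which methylates a ribosomal protein, went the other way, with 7.02 ± 0.05 in PGC and 5.38 ± 0.28 in CEF and a difference of 1.64 ± 0.15. PRMT9, which methylates a splicing factor, was nearest to 0 at 0.04 ± 0.13, and PRMT7 had the largest difference not called at 0.52 ± 0.12. PRMT5, a symmetric arginine methyltransferase known from mouse germ cells, also differed by 0.52 and was not called.

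Acetyltransferases held the largest difference of all 91 genes. KAT2B, the coactivator PCAF, read 2.20, 2.55 and 2.19 in PGC and 6.99, 6.91 and 6.77 in CEF. PGC levels were just above background on every array and CEF levels high on every array. The difference was -4.58 ± 0.15, 23.9-fold higher in CEF, with an adjusted p of 7.9e-08 by limma. Its 2 other probe sets differed by -3.04 and -2.98, and it was higher in CEF also under scaling to the spike-ins (-3.60).

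KAT7, the acetyltransferase HBO1 of histones H3 and H4, read 9.82, 9.84 and 9.84 in PGC and 7.72, 7.66 and 7.57 in CEF. The arrays of each cell type were tightly grouped, and the difference of 2.18 ± 0.07 was 4.54-fold. KAT14, a subunit of the ATAC acetyltransferase complex, averaged 6.94 ± 0.02 in PGC and 5.12 ± 0.10 in CEF, a difference of 1.82 ± 0.11. KAT6B, which like KAT6A acetylates H3, averaged 4.07 ± 0.02 in PGC and 2.51 ± 0.46 in CEF. It differed by 1.56 ± 0.22 on a shared probe set, while its unshared probe set lay at background in both cell types. These 3 of 7 acetyltransferases were higher in PGC and 1 was higher in CEF, and scaling to the spike-ins gave 4 and 1. KAT2A, the coactivator GCN5, averaged 10.47 ± 0.03 in PGC and 11.46 ± 0.07 in CEF. Its difference of -0.99 ± 0.05 had an adjusted p of 7.6e-07 by limma and fell just short of the 2-fold threshold, which it passed without PGC replicate 2 (-1.005) or CEF replicate 1 (-1.03). It also passed on the 75th percentile (-1.11). The difference was -0.018 under scaling to the spike-ins and -0.41 on the mean of all its probe sets. KAT6A was nearest to 0 in this family at 0.08 ± 0.12.

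Among the 9 zinc-dependent deacetylases, 3 were higher in PGC and 2 higher in CEF, and under scaling to the spike-ins 5 and 1. HDAC11, the only class IV enzyme, read 6.34, 6.37 and 6.27 in PGC and 3.40, 2.85 and 3.001 in CEF. Every PGC array was above every CEF array by a wide margin. The difference of 3.24 ± 0.17, or 9.47-fold, had an adjusted p of 8.5e-07 by limma and was the largest in favour of PGC among the 91 genes. HDAC8 and HDAC3 belong to class I, and HDAC3 works in the NCoR corepressor. HDAC8 averaged 8.80 ± 0.09 in PGC and 7.61 ± 0.15 in CEF, a difference of 1.19 ± 0.10. HDAC3 averaged 7.40 ± 0.11 in PGC and 6.35 ± 0.07 in CEF, a difference of 1.06 ± 0.11 that was 0.999 without PGC replicate 3.

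Both deacetylases higher in CEF were class IIa enzymes, which shuttle between nucleus and cytoplasm and bind MEF2 factors. HDAC9 read 5.29, 4.75 and 5.06 in PGC and 7.39, 6.79 and 7.41 in CEF. The lowest CEF array stood above the highest PGC array. It differed by -2.16 ± 0.21, or 4.47-fold (adjusted p = 3.5e-05 by limma), on a shared probe set. The difference of HDAC9 was smaller but still called on its unshared probe set (-1.06) and on the mean of all its probe sets (-1.03), of which the dimmest lay at background. HDAC4 differed by -1.23 ± 0.12, with 4.93 ± 0.11 in PGC and 6.16 ± 0.03 in CEF. HDAC7, the other class IIa gene measured, was nearest to 0 of the deacetylases at -0.19 ± 0.22. HDAC2, a class I enzyme, had the largest difference not called at 0.77 ± 0.08.

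None of the 6 sirtuins, the NAD-dependent deacylases, was called by limma, and their median difference was -0.26. An unadjusted p under 0.05 was reached by 4 of 6, where 67.3% of all genes reached it. The same 4 had an adjusted p under 0.05 by limma and missed only the 2-fold threshold, as did 3770 of the 8782 genes not called on the whole array. Scaling to the spike-ins called 2, SIRT2 and SIRT5, higher in PGC, with a median of 0.71, and centring on the 75th percentile called SIRT6 higher in CEF. SIRT6, a nuclear deacetylase of H3, read 5.73, 5.82 and 6.04 in PGC and 6.80, 6.48 and 6.93 in CEF. The groups did not overlap, and the difference was -0.88 ± 0.15 (adjusted p = 0.0013 by limma). It passed the 2-fold threshold without CEF replicate 2 (-1.01), and it was above 0, at 0.10, under scaling to the spike-ins. SIRT1 was nearest to 0 at -0.13 ± 0.12.

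The 13 measured SWI/SNF subunits had a median difference of 0.14, and the 11 not called ranged from -0.69 to 0.80. Of those 11, 4 had an adjusted p under 0.05 by limma, as did 3770 of the 8782 genes not called on the whole array. SMARCD1 was called higher in PGC and SMARCA2 higher in CEF. Under scaling to the spike-ins 9 of the 13 were higher in PGC and none in CEF. SMARCD1, the core subunit BAF60A, read 6.17, 6.12 and 6.18 in PGC and 3.46, 4.17 and 4.56 in CEF. The CEF arrays were spread over more than 1 log2 unit and still below all PGC arrays. Its difference was 2.09 ± 0.25, or 4.27-fold (adjusted p = 1.5e-04 by limma). SMARCA2, the ATPase BRM, averaged 5.91 ± 0.17 in PGC and 7.60 ± 0.19 in CEF, a difference of -1.69 ± 0.14, and was not called on the mean of its probe sets (-0.84). Of the 11 not called, the core subunit SMARCC1 was nearest to 0 at 0.02 ± 0.10, and ARID2, which marks the PBAF form of the complex, had the largest difference at 0.80 ± 0.19.

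Of the 4 ISWI and other SNF2 remodellers, 3 were higher in PGC and none in CEF, and scaling to the spike-ins made it 4 and 0. SMARCAD1, a remodeller at replicating and broken DNA, read 7.48, 7.40 and 7.48 in PGC and 4.91, 5.01 and 5.22 in CEF. The groups were far apart, with a difference of 2.41 ± 0.12, or 5.31-fold (adjusted p = 7.6e-07 by limma). SMARCAL1, which rewinds DNA at stalled replication forks, averaged 6.27 ± 0.04 in PGC and 4.79 ± 0.10 in CEF, a difference of 1.49 ± 0.12. SMARCA1, the ISWI ATPase SNF2L, averaged 7.77 ± 0.03 in PGC and 6.52 ± 0.26 in CEF, a difference of 1.25 ± 0.14. The other ISWI ATPase, SMARCA5, was high in both cell types, with 9.97 ± 0.13 in PGC and 9.67 ± 0.17 in CEF, and its difference of 0.30 ± 0.10 was not called. The proliferation markers given above were also higher in PGC, and their part here was not tested.

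Of 8 CHD remodellers, 3 were higher in PGC and 1 higher in CEF, and 3 and 0 under scaling to the spike-ins. CHD1L, a remodeller drawn to DNA breaks by poly(ADP-ribose), read 5.92, 5.88 and 5.91 in PGC and 3.12, 3.03 and 3.53 in CEF. The PGC arrays were nearly equal and all above the CEF arrays, and the difference of 2.68 ± 0.16 was 6.40-fold (adjusted p = 2.2e-06 by limma). CHD7, a remodeller at enhancers, averaged 7.67 ± 0.17 in PGC and 5.87 ± 0.36 in CEF, a difference of 1.80 ± 0.18, and all its probe sets above background were called higher in PGC, with differences from 1.46 to 2.64. CHD1, which acts on transcribed genes, averaged 6.20 ± 0.15 in PGC and 5.18 ± 0.30 in CEF. It differed by 1.02 ± 0.17 and fell short of the threshold without CEF replicate 1 (0.95), CEF replicate 2 (0.93) or PGC replicate 1 (0.94). In birds CHD1 has near-identical copies on both sex chromosomes, and its probe set may read either. CHD2, its closest relative, averaged 4.13 ± 0.16 in PGC and 5.48 ± 0.10 in CEF, a difference of -1.34 ± 0.14, with -2.04 and -1.87 on its other 2 probe sets above background, and was not called on the mean of all 6 (-0.92), of which 3 lay at background. CHD9 was nearest to 0 at -0.01 ± 0.14, and the NuRD ATPase CHD4 had the largest difference not called at -0.67 ± 0.11.

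The remaining genes are readers of marks and DNA-binding subunits. ARID5B, a DNA-binding partner of the demethylase PHF2, read 5.53, 5.50 and 5.25 in PGC and 7.03, 7.01 and 7.31 in CEF. All CEF arrays were higher, with a difference of -1.69 ± 0.14, or 3.23-fold (adjusted p = 1.2e-05 by limma). The other ARID gene, ARID4A, a subunit of SIN3 complexes, differed by -0.32 ± 0.11. Scaling to the spike-ins called neither of them on the brightest probe set. The other probe set of ARID5B, also marked as shared, differed by more, with 2.96 in PGC and 6.69 in CEF (-3.72). The mean of its probe sets differed by -2.71. The other probe sets of ARID4A differed by 1.88 and 1.72, both called higher in PGC, and by -0.08 and -0.01. The mean of all probe sets of ARID4A differed by 0.64 and was not called.

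ING5, a PHD-finger reader of the trimethyl mark on H3K4 and a subunit of the KAT6 and KAT7 complexes, read 7.29, 7.16 and 7.13 in PGC and 5.43, 5.06 and 5.07 in CEF. The groups were clearly apart, with a difference of 2.01 ± 0.14, or 4.02-fold (adjusted p = 4.3e-06 by limma). It was the only 1 of 5 ING genes to be called, and scaling to the spike-ins called 3 higher in PGC. ING4 was nearest to 0 at -0.29 ± 0.13, and ING1, the reader of a SIN3 complex, had the largest difference not called at -0.73 ± 0.11.

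None of the 5 bromodomain readers was called by limma, and 1 was higher in PGC under scaling to the spike-ins. An unadjusted p under 0.05 by limma was reached by 2 of 5, where 67.3% of all genes reached it. Of these, BRD8 alone was above background. BRD8, a subunit of the NuA4 acetyltransferase, read 6.59, 6.51 and 6.61 in PGC and 5.69, 5.84 and 5.84 in CEF. The groups did not overlap, and the difference of 0.78 ± 0.11 (adjusted p = 3.9e-04 by limma) was under the 2-fold threshold. This probe set is marked as shared. On its unshared probe set BRD8 differed by -0.51, with 1.91 in PGC and 2.43 in CEF, and was not called. BRD1, a scaffold of acetyltransferase complexes, averaged 5.71 in each cell type. BRDT, the testis member of the BET family, lay at background in both cell types.

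**Figure D2:**
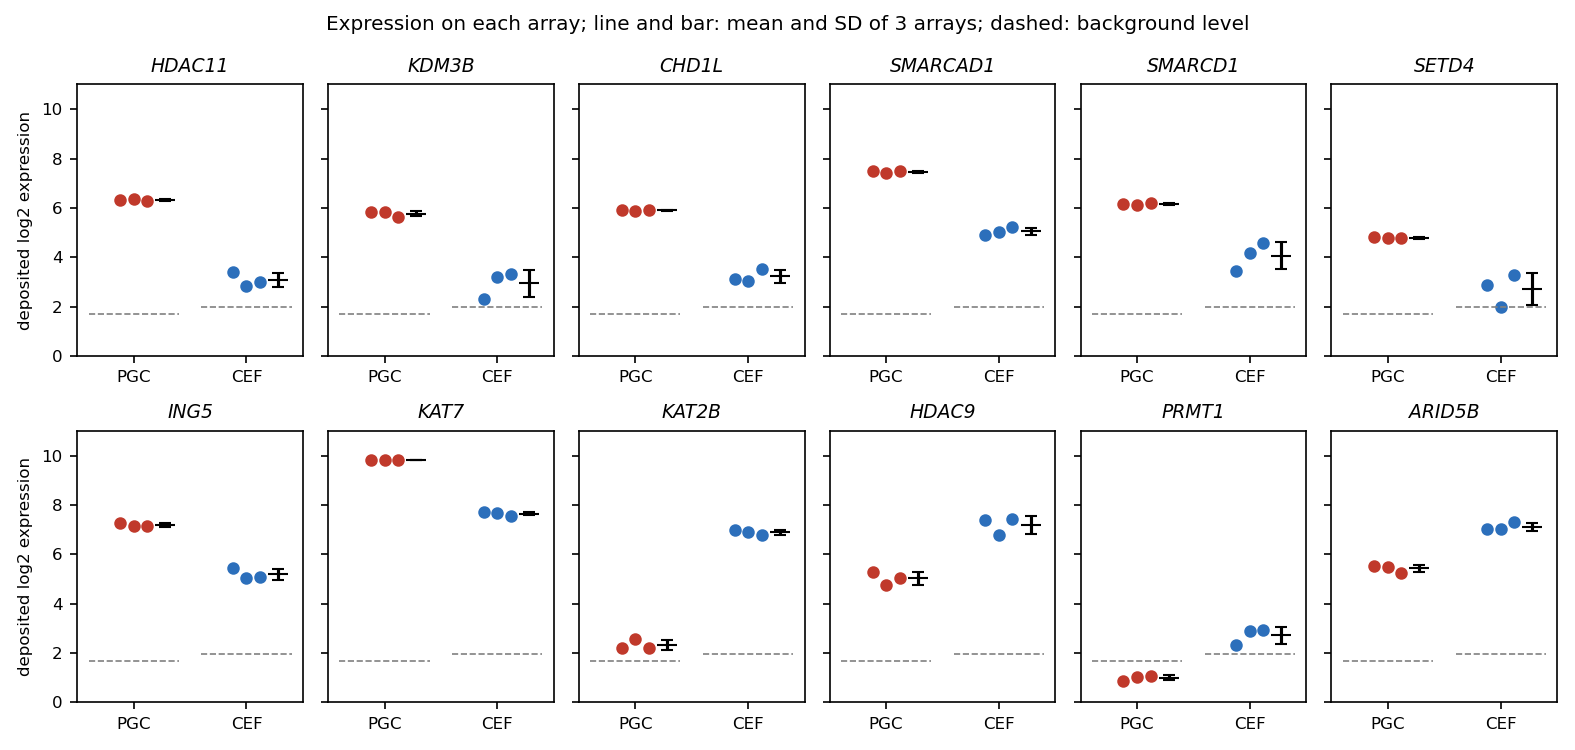
Deposited log2 expression (vertical axis) of 12 chromatin genes on each array, PGC in red left of CEF in blue, with mean and SD of 3 arrays beside the points and the background level dashed. The 8 genes from HDAC11 to KAT7 are higher on all PGC arrays, and KAT2B, HDAC9, PRMT1 and ARID5B are lower on all PGC arrays.

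Many of these enzymes come in pairs of close relatives, and for 18 of the 31 measured pairs the members got different calls. Over all pairs of genes on the array, 49.1% did. The comparison within a pair was made on each array as the first gene minus the second. Shifting all values of an array by the same amount cannot change this quantity, but a scaling that depends on intensity can. The comparison shows unequal change of the 2 genes and not that either stayed the same. An exact two-sided permutation test over 3 against 3 arrays cannot go below p = 0.1. The arrays of the cell types did not overlap for 24 of the 31 pairs, where 76.6% of all pairs of genes met that pattern. The pairs below were picked because their calls differ, so their changes are a description with no test. Levels of different probe sets are not compared, only their change between cell types.

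In 2 pairs the members were called in opposite directions. PRMT1 minus PRMT3 was -6.17, -5.92 and -5.96 on the PGC arrays and -2.89, -2.33 and -2.77 on the CEF arrays, a change of -3.36 in the deposited values. PRMT1 was below background in PGC, and with the background level in its place the change was -2.67, so that its size is not exact. CHD1 minus CHD2 was 2.41, 1.89 and 1.90 on the PGC arrays and -0.47, -0.38 and -0.04 on the CEF arrays, a change of 2.37. In both pairs the arrays of the cell types did not overlap.

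In the pair KAT2A and KAT2B, which replace each other in the same complexes, KAT2B was called lower in PGC (-4.58) and KAT2A was not called (-0.99). The difference between them was 8.24, 7.95 and 8.28 on the PGC arrays and 4.39, 4.55 and 4.77 on the CEF arrays, a change of 3.59. The H3K9 demethylases KDM3A and KDM3B gave 2.68, 2.61 and 2.71 on the PGC arrays and 5.71, 4.89 and 4.91 on the CEF arrays, a change of -2.50. Both sets of arrays were again apart.

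The remaining demethylase pairs changed by 1.30 for KDM4A and KDM4C, and by -0.32 for KDM5A and KDM5B, whose arrays overlapped. KDM2A lay at background in both cell types, so no change is given for KDM2A and KDM2B. Acetyltransferases gave -2.75 for KAT5 and KAT7 and -1.48 for KAT6A and KAT6B. The readers ING4 and ING5 gave -2.30, and the class IIa deacetylases HDAC4 and HDAC7 gave -1.04. The CHD family gave -1.83 for CHD6 and CHD7 and 1.81 for CHD7 and CHD9.

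In SWI/SNF, SMARCD1 changed relative to its alternatives SMARCD2 and SMARCD3 by 1.97 each. SMARCA4 relative to SMARCA2, the alternative ATPases BRG1 and BRM, changed by 1.00, with 1.59, 1.83 and 1.91 on the PGC arrays and 1.12, 0.73 and 0.48 on the CEF arrays. The ISWI ATPases SMARCA5 and SMARCA1 changed by -0.96, and the MLL enzymes KMT2C and KMT2D by -1.22. With the mean of all probe sets of each gene, the change was 0.15 for SMARCA4 and SMARCA2, -0.04 for KMT2C and KMT2D, -0.06 for KAT6A and KAT6B and 0.23 for KDM5A and KDM5B. The second probe set of SMARCA2 lay at background in both cell types.

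**Figure D3:**
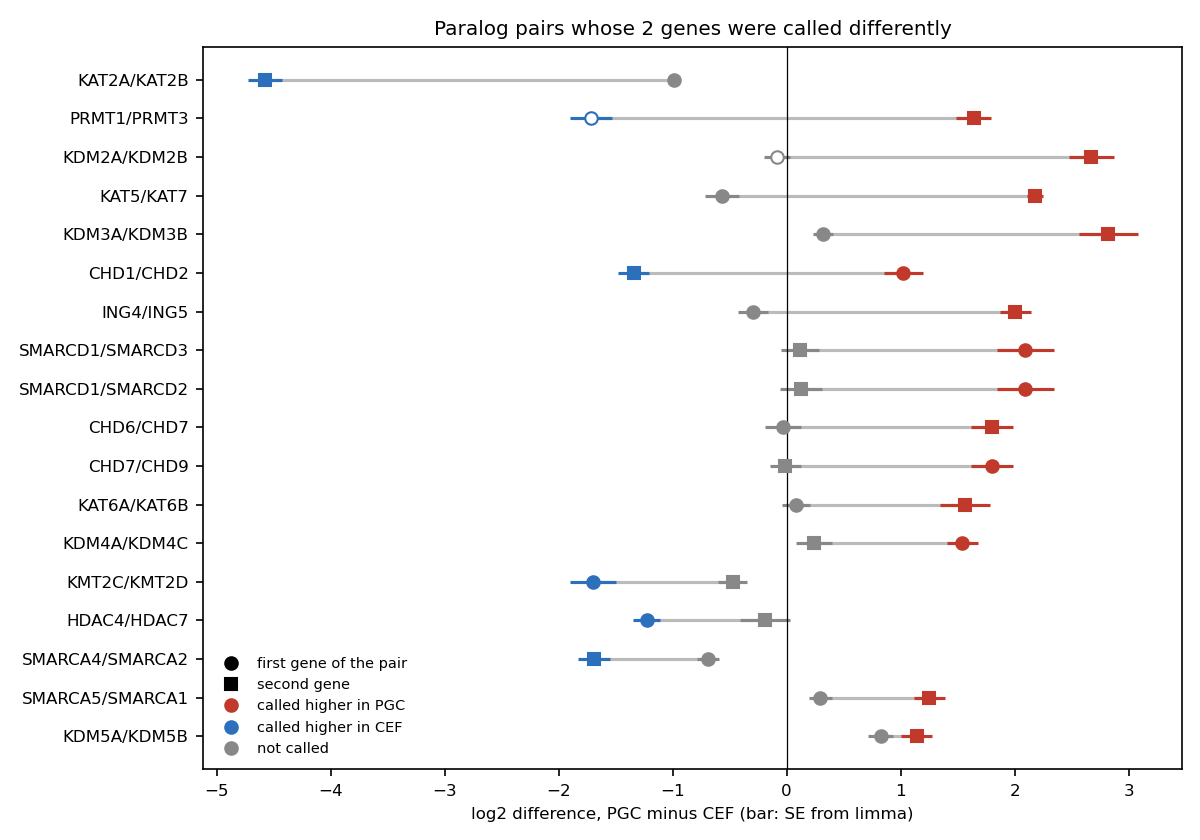
Log2 difference (PGC minus CEF, horizontal axis) of both genes of the 18 paralog pairs with different calls, with SE from limma, the first gene as a circle and the second as a square. Red marks genes called higher in PGC, blue those called higher in CEF and grey those not called. Open symbols mark KDM2A, at background in both cell types, and PRMT1, below background in PGC. PRMT1 and PRMT3 and also CHD1 and CHD2 lie on opposite sides of 0.

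Most of these genes had more than 1 probe set, and the choice of the brightest affects several of them. For 61 chromatin genes with at least 2 probe sets above background, the other probe sets gave a higher PGC minus CEF difference in 37 (60.7%), with a median shift of 0.26. Over all genes the same held for 3524 of 5628 (62.6%), with a median shift of 0.24. Of 39 such chromatin genes whose brightest probe set was not called, 10 (25.6%) had another called higher in PGC and 0 had another called higher in CEF. Over all genes these shares were 24.8% and 6.45%. No chromatin gene whose brightest probe set was called had another called in the opposite direction. Over all 5628 genes this was met by only 42. Of the 35 called genes, 8 (ARID5B, HDAC4, ING5, KAT7, KDM3B, KMT2C, SETD4 and SMARCAD1) had no unshared probe set.

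The 10 genes were ARID1B, ARID4A, BRD1, CHD4, CHD9, KAT6A, KDM1A, KDM3A, KDM5A and SIRT1. CHD4 differed by -0.67 on its brightest probe set, at 7.30 in PGC and 7.97 in CEF, and by 1.33, 1.87 and 2.34 on the other 3. KDM1A differed by 0.07 on its brightest, at 7.60 in PGC and 7.53 in CEF, and by 1.58 and 2.31 on the other 2, both of which are marked as shared between transcripts. With the mean of all probe sets, CHD4 (1.22), KDM1A (1.32) and KDM5A (1.07) were called higher in PGC, and the others of the 10 were not called. For KDM2B, in contrast, the 3 probe sets above background differed by 2.67, 3.32 and 3.31.

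Control transcripts have probe sets near either end. For actin the end nearest the poly(A) tail minus the opposite end averaged 0.62 in PGC and 0.38 in CEF, and the arrays overlapped. For GAPDH it averaged -0.24 in PGC and 0.05 in CEF, and for the elongation factor EF1a 0.35 in PGC and 0.68 in CEF, both without overlap. CEF replicate 1 was the highest array for all 3 transcripts. Whether RNA length plays a part in the differences between probe sets was not tested.

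**Figure D4:**
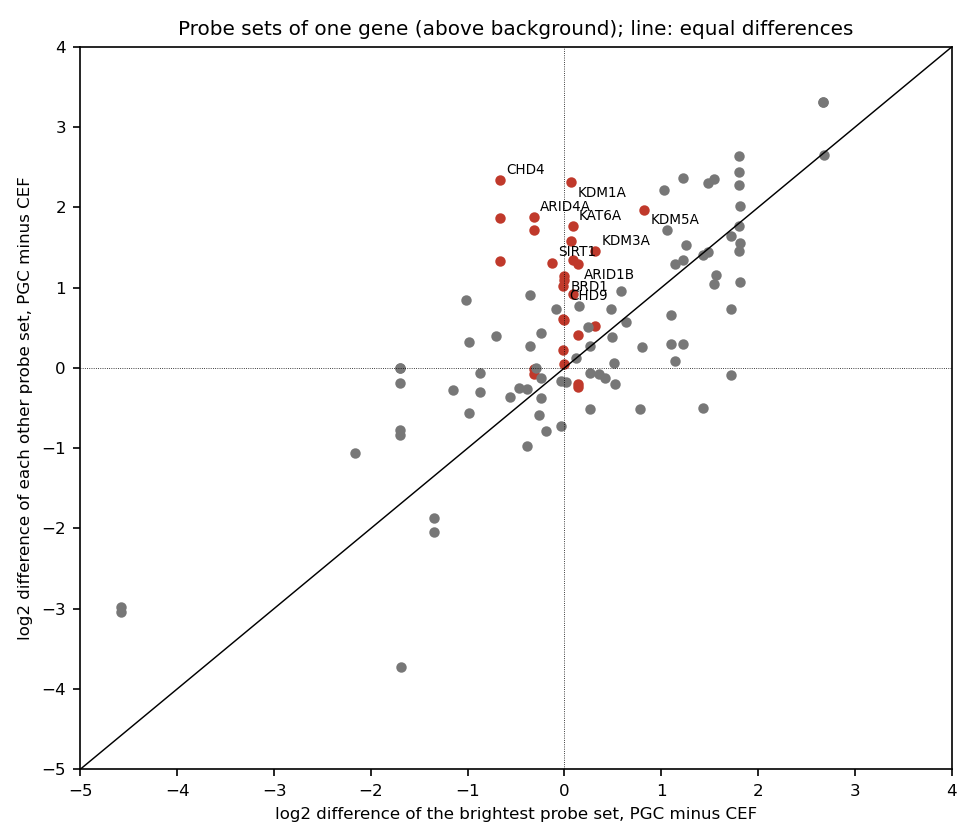
Log2 difference of each other probe set (vertical axis) against that of the brightest probe set of the same gene (horizontal axis), PGC minus CEF, for chromatin genes with at least 2 probe sets above background. Red points are all other probe sets of the 10 named genes, whose brightest probe set was not called and of which another was called higher in PGC. The line marks equal differences.

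Chromatin enzymes work in complexes, and 96 of 128 listed partner subunits and related enzymes were measured. Of these 33 were higher in PGC and 5 higher in CEF, or 34.4% and 5.21%, with a median difference of 0.51. Over all genes the shares were 17.6% and 14.9%, with a median of -0.05. Scaling to the spike-ins gave 72 and 2 partners, or 75% and 2.08%, where all genes gave 45.6% and 7.13%. The counts by complex below are to be read beside the same shares. The partners of acetyltransferase complexes were the longest list, with 13 of 28 higher in PGC and none in CEF. Among them were YEATS4 (2.73), a reader of acetylated histones in NuA4, and SUPT7L (2.33), a subunit of SAGA.

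The corepressors SIN3, CoREST and NCoR had 6 of 15 partners higher in PGC and none in CEF, led by ZMYM2 (2.43), a zinc-finger protein of the CoREST complex, and the scaffold SIN3A (1.30). In NuRD, the remodelling deacetylase, 3 of 8 were higher in PGC and 2 higher in CEF. MBD3, its methyl-CpG-binding-domain subunit, read 10.77, 10.82 and 10.84 in PGC and 7.36, 7.75 and 8.01 in CEF, a difference of 3.10 ± 0.14, and MTA3 differed by 2.28. All PGC arrays were above all CEF arrays for MBD3. CDK2AP1, a small NuRD subunit, differed by -3.18, and MBD2, which takes the place of MBD3 in part of the complexes, by -1.01, a value of -0.96 without CEF replicate 1 and -0.99 without PGC replicate 1. MBD2 was not called under scaling to the spike-ins.

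SWI/SNF partners included 2 of 9 higher in PGC, BCL11A (2.79) and the actin-like subunit ACTL6A (1.20, and 0.92 without CEF replicate 1). ISWI partners had 1 of 10 in each direction, BAZ2B (1.38) and BAZ1A (-2.25), both large subunits that pair with ISWI ATPases. INO80 and SRCAP had 2 of 7 higher in PGC, NFRKB (1.23) and ACTR6 (1.06). COMPASS, the complex around the H3K4 methyltransferases, had 1 of 6, NCOA6, which was below background in CEF and at least 1.63-fold higher in PGC. SWI/SNF, INO80 and SRCAP, and COMPASS had no partner higher in CEF on the brightest probe sets. With unshared probe sets COMPASS had 1 in each direction, and on the mean of all probe sets it had none in either.

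The PRMT5 list had 2 of 4 higher in PGC. WDR77, the obligate partner of PRMT5, differed by 1.99, with 9.82, 9.92 and 9.89 in PGC and 8.12, 7.53 and 8.003 in CEF. PRDM1, the factor BLIMP1 of mouse germ cell specification, differed by 1.32, with 3.04, 3.80 and 3.45 in PGC and 2.31, 2.02 and 1.99 in CEF. The groups did not overlap for either gene. Other methyltransferases and demethylases had 3 of 11 higher in PGC and 2 higher in CEF, among them the H3K36 methyltransferase NSD1 (1.75) and JMJD1C (1.36), a relative of KDM3B, against PHF2 (-1.24), the partner of ARID5B, and SMYD4 (-1.21). Both genes lower in PGC were not called under scaling to the spike-ins.

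**Figure D5:**
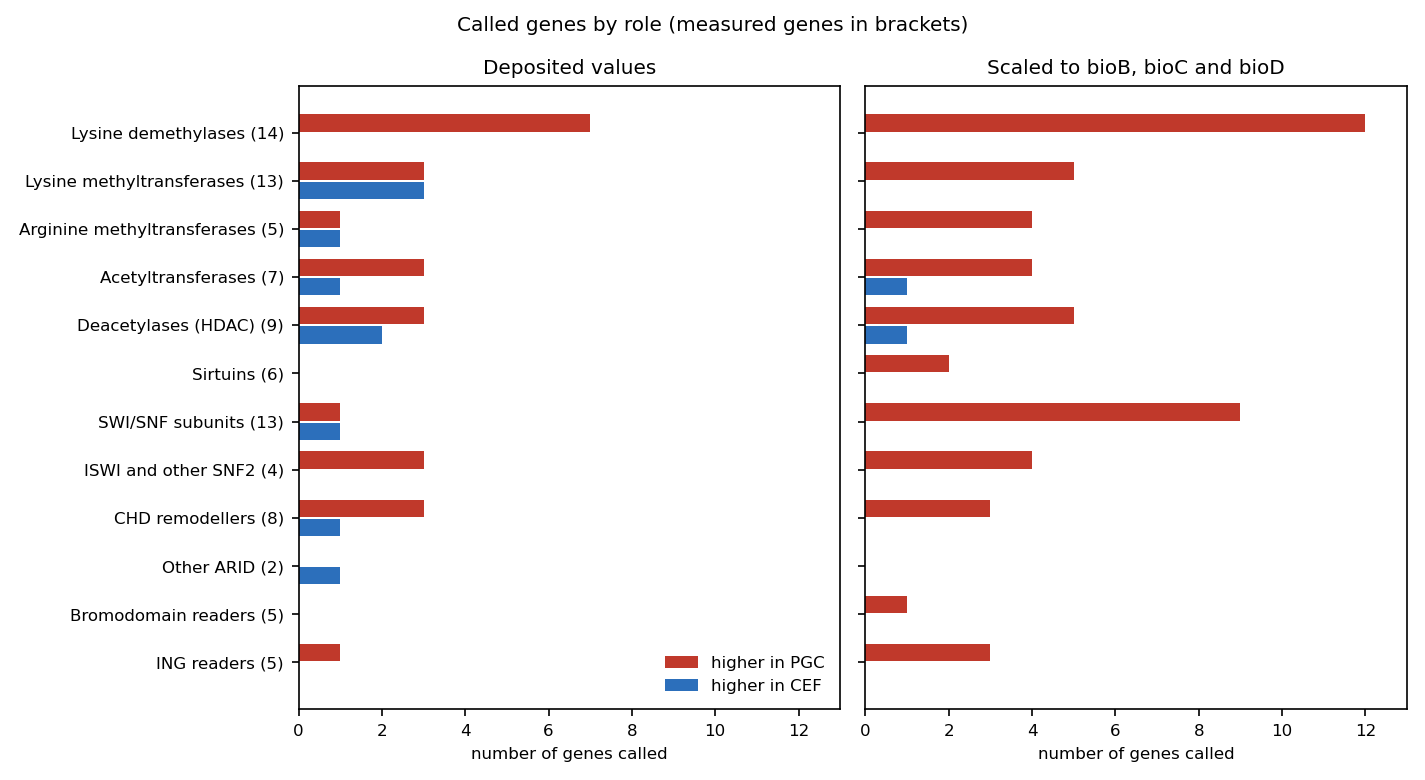
Number of chromatin genes called (horizontal axis) in each role, red for higher in PGC above blue for higher in CEF, on the deposited values (left) and after scaling to the spike-ins (right). Of 12 roles, 6 have more genes higher in PGC than in CEF on the left and 11 on the right.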

How the data were processed

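Total RNA of 3 PGC and 3 CEF replicates, called biological in their titles, had been labelled with biotin and hybridised to 1-colour Affymetrix arrays, per the labels' protocols. MAS5 and GCOS appear in the submitters' processing notes, but the normalization is not given in the sources used here. For 38535 probe sets, the deposited values ran from -0.13 to 12.52 and were taken as log2 expression, a reading that comes from the values, and were used as the authors deposited them, without further scaling. Leaving out 96 control probe sets left 38439, of which 27168 had 1 gene symbol in the array annotation, 177 had several and 11094 had none. Probe sets with several symbols name no gene here. All 91 symbols are also current RefSeq symbols.

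PGC and CEF were compared by a two-sided limma fit (version 3.58.1, R 4.3.3) whose only term was the cell type, using lmFit and then eBayes with its trend option on, with Benjamini-Hochberg adjustment over all tested probe sets and 4 residual degrees of freedom. The code was tested on simulated data. The background level was the 95th percentile of 687 probe sets without a symbol whose identifiers lack the chicken prefix. Where the lower cell type lay under it, the fold is given as "at least". The number of arrays limits the precision.

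Named were all called genes, the smallest and largest difference among those not called in each role, the 2 largest called partners of each list and direction, and the paralog pairs with differing calls. PRMT5, KDM2B's and CHD7's further probe sets, BRDT and the markers ERG, PTPRC and ACTA1 were added after their values were seen. The genes, lists and tests were chosen with earlier results of these data known. Sequences are not shown here, and positions were not used here.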

Additional observations from a re-analysis of the deposited data

How the results depend on the processing

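Scaling to the spike-ins moved the chromatin genes to 52 higher in PGC and 2 higher in CEF, the partner genes to 72 and 2, all genes to 5938 and 928, and the roles with more genes higher in PGC to 11. Testing against a minimum of 2-fold with limma's treat left 15 chromatin genes higher in PGC and 6 higher in CEF, 14 and 2 partner genes, and 1401 and 1283 of all genes. Averaging all probe sets of a gene left 24 chromatin genes higher in PGC and 5 higher in CEF, 31 and 4 partner genes, and 2078 and 1496 of all genes. Of the 35 called chromatin genes, 27 kept their call under spike-in scaling, 32 on the 75th percentile, 32 under quantile normalization, 26 on the mean of all probe sets (15 of the 24 with several), 34 with array weights, 35 without the trend and 35 without dim probe sets. Of the 9 whose brightest probe set is shared and that have an unshared one, 4 kept their call on it, and 8 have none. Scaling to cre, added after seeing the data, kept 34 (KMT2E -0.89) and turned BRD1 to 0.13, CHD9 to 0.12 and SETD3 to 0.041. Leaving out 1 array kept 32 to 35, and no called gene changed direction.

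Both reversals of a called gene came on unshared probe sets (KDM4B -0.50, KDM6A -0.086), and that of KDM6A was close to background in both cell types. The other reversals concern differences that were not called. They are listed only for the smallest and largest of these in each role and for the named pairs. Other members also changed sign, such as SMARCA4 (-0.69 to 0.28) and KAT5 (-0.57 to 0.41) under spike-in scaling. Under spike-in scaling ARID4A became 0.65, BRD1 0.97, CHD4 0.30, CHD9 0.96, HDAC7 0.78, ING1 0.24, ING4 0.68, KMT5B 0.26, SETD3 0.88, SIRT1 0.84 and SIRT6 0.10. On the mean of all probe sets ARID4A became 0.64, BRD1 0.45, CHD4 1.22, CHD9 0.35, SETD3 0.23, SIRT1 0.27, SMARCC1 -0.11 and KDM5A minus KDM5B 0.23. On unshared probe sets BRD1 became 0.048, BRD8 -0.51, ING4 0.0032, SETD3 0.73, KDM5A minus KDM5B 0.74 and KAT6A minus KAT6B 0.077. On the 75th percentile KAT6A became -0.039, KDM1A -0.052, PRMT9 -0.083 and SMARCC1 -0.10, and under quantile normalization PRMT9 -0.025 and SMARCC1 -0.016. The cause was not tested.

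With 1 array left out, 23 to 25 chromatin genes were higher in PGC and 8 to 11 higher in CEF, and BRD1 ranged from -0.077 to 0.069, CHD9 from -0.083 to 0.059, HDAC7 from -0.38 to 0.053, KAT6A from -0.028 to 0.15, PRMT9 from -0.080 to 0.13 and SMARCC1 from -0.066 to 0.12. The labels give no pairing of the replicates. Deviations of same-numbered arrays correlated at -0.04, -0.01 and 0.0088, and those of differently numbered arrays at -0.08 to 0.08. With 3 arrays per group these values cannot decide whether arrays were handled in pairs. A fit with the replicate block gave 25 chromatin genes higher in PGC and 10 higher in CEF and ended none of the 35 calls. The median SD over probe sets was 0.0953 in PGC and 0.203 in CEF. A gene below background, such as PRMT1 in PGC, has only a bound, and KDM2A, CHD5 and BRDT could not be compared.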
